A study of Arabidopsis thaliana with 32 samples.

Results

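The genes described here were 10 Arabidopsis thaliana genes of desiccation and cold tolerance, taken by their locus codes wherever the 4 deposited tables list them. They were the dehydrin genes LTI30 (AT3G50970), RAB18 (AT5G66400) and ERD10 (AT1G20450), the desiccation genes RD29A (AT5G52310) and RD29B (AT5G52300), the cold gene COR15A (AT2G42540), and the late embryogenesis abundant (LEA) genes LEA7 (AT1G52690), LEA14 (AT1G01470), AT5G66780 and AT3G17520. At least 1 table listed 9 of the 10, among 3443 genes listed in the series as a whole. LTI30, RD29A, RD29B, LEA7, AT5G66780 and AT3G17520 were in all 4 tables. LEA14 was in the tables of d14 and Col-0, RAB18 in those of kai2 and Col-0, ERD10 in that of d14 alone and COR15A in none.

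RNA came from whole roots of hydroponic plants at an age of 5 weeks. Zaxinone, an apocarotenoid (a cleavage product of carotenoids), was given at 20 µM in 1% acetone, and mock plants received 1% acetone, so that all groups had the solvent. Roots were taken after 6 h from the mutants d14, kai2 and max2 and from wild type Col-0, with 4 zaxinone and 4 mock libraries for each genotype and 32 libraries in all. D14 is the strigolactone receptor, the subject named in the series title, KAI2 is its paralog with a part in karrikin responses, and MAX2 is the F-box protein that works with both. The labels name no mutant alleles and do not say whether the 4 libraries of a group stem from separate cultures. The p-values given here then measure library-to-library spread, which may be technical. D14 and MAX2 were in no table and KAI2 in that of kai2 alone, so the genotypes could not be checked from the files. In bulk root RNA, more expressing cells and more RNA per cell cannot be told apart.

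LEA proteins are very hydrophilic proteins that accumulate in maturing seeds and, in roots and leaves, when cells lose water or freeze, and they help to keep membranes and other proteins intact while water is short. Dehydrins are the LEA class with lysine-rich repeats. Many of these genes are switched on by abscisic acid (ABA) through ABRE-binding bZIP factors that read the ABA-responsive element, ABRE, in the promoter. Others answer to cold and drought through DREB and CBF factors, which read the dehydration-responsive element, DRE.

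With zaxinone, every member that a table listed was higher than in mock roots. The authors' deposited tables listed 8 members in d14, 7 in kai2, 6 in max2 and 8 in Col-0, and none of these was listed as lower. Over all genes tested, 5.94% were listed as higher in d14, 4.16% in kai2, 3.57% in max2 and 3.74% in Col-0. Listing required an adjusted p under 0.05 together with a log2 change of at least 1 in either direction, so that unlisted members could not be measured and the listed ones had to differ. Their zaxinone and mock libraries did not overlap in any of the 29 cases, as held for 93.4%, 94.2%, 91.2% and 91.4% of all genes listed as higher in d14, kai2, max2 and Col-0. The edgeR fit of the same counts called the same 8, 7, 6 and 8 members, against 5.33%, 3.68%, 3.02% and 3.15% of all genes tested. Because listing itself used these libraries, the fit describes effect sizes and their error and does not test the calls anew. With the authors' factors edgeR called 1317 genes higher and 783 lower in d14, 905 and 672 in kai2, 740 and 521 in max2, and 790 and 780 in Col-0. Scaled by TMM over the listed genes instead, it called 603 higher and 868 lower in d14, 509 and 803 in kai2, 359 and 625 in max2, and 802 and 795 in Col-0, while every listed member stayed above 0. Library depth was 42.8 to 73.9 M fragments in the mutants and 67.6 to 101.9 M in Col-0.

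**Figure D1:**
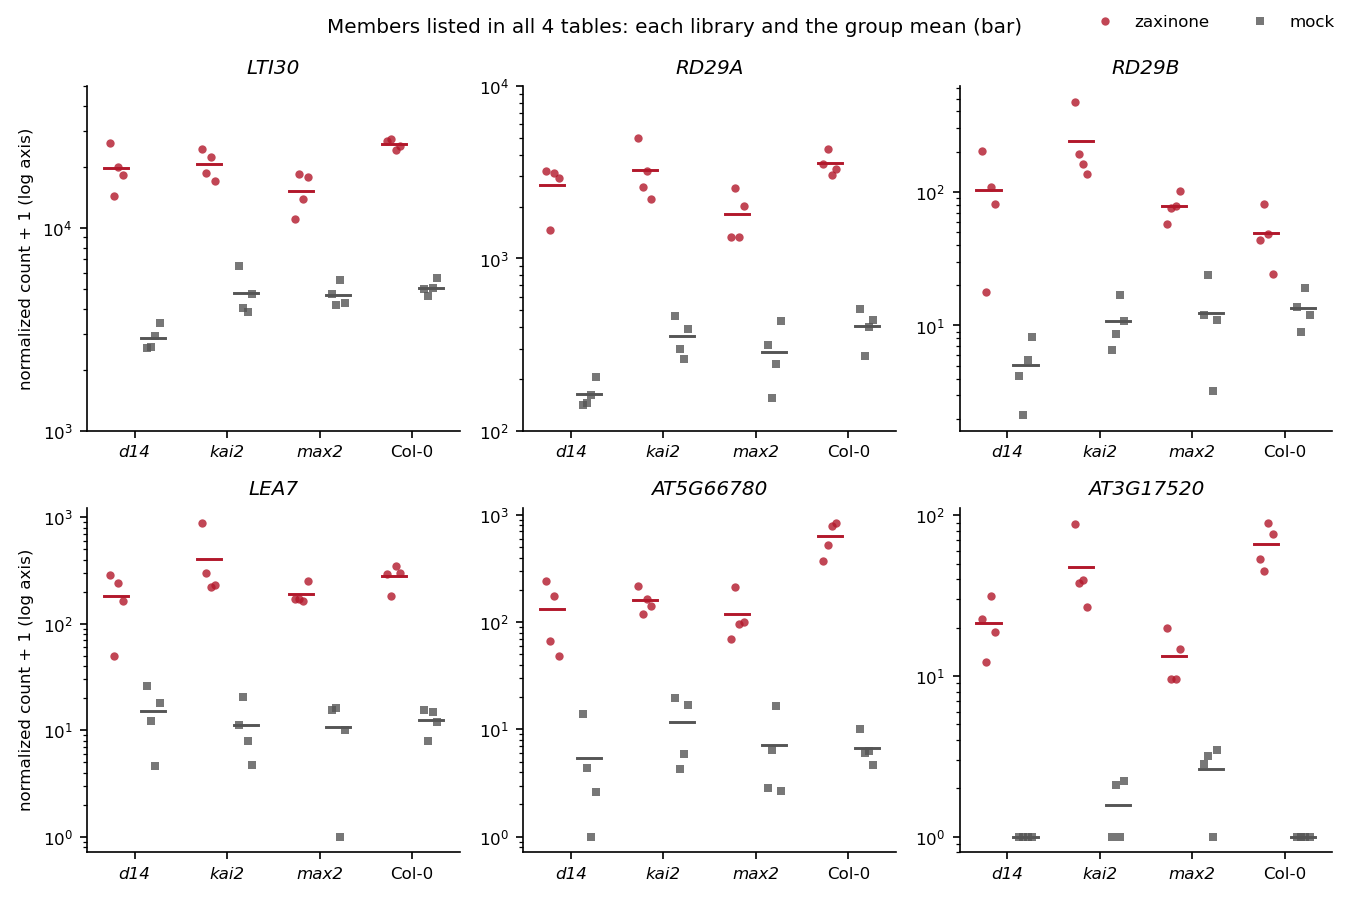
Normalized counts plus 1 (log axis) of the 6 members listed in all 4 tables, with 1 point per library (circles, zaxinone; squares, mock) and bars at the group means, n = 4 libraries per group. In each panel and genotype all zaxinone libraries lie above all mock libraries. The AT3G17520 points on the floor of the d14 and Col-0 mock groups have 0 counts.

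The values that follow include normalized counts (raw counts divided by the authors' factor for each library), in the order of the replicate numbers. Log2 fold changes of zaxinone over mock come from edgeR. The SE of a log2 change is its absolute size divided by the square root of the test's F value, and edgeR does not report it. Normalized counts were scaled within a genotype, and levels are set across genotypes only as FPKM (fragments per kilobase of exon, scaled to library depth).

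LTI30, also known as XERO2, is a cold- and ABA-inducible dehydrin gene and lies at bases 18940643 to 18941611 of chromosome 3 (TAIR10.1). Among the 6 members in all 4 tables it had the highest level. In d14 roots it had 26210.1, 14424, 19962 and 18308 normalized counts with zaxinone, against 2564, 2599.9, 2939.8 and 3418 in mock roots. In kai2 roots the zaxinone libraries had 24597, 18559.9, 22357 and 17012, against 6462, 4010.3, 3849 and 4712 in the mock libraries. In max2 the counts were 11096, 18333, 13825 and 17737 with zaxinone and 4726, 4163, 5519 and 4261 in mock roots. Zaxinone replicate 2 was the lowest of its group in d14, and replicate 1 was the lowest in max2. Col-0 roots had the tightest zaxinone group, with 26722, 27498, 24195 and 25415, against 5019.5, 4629.7, 5032 and 5655 in mock roots. LTI30 rose by 2.78 ± 0.20 in d14, 2.12 ± 0.20 in kai2, 1.71 ± 0.19 in max2 and 2.35 ± 0.15 in Col-0 on the log2 scale (edgeR, adjusted p = 1.4e-06, 2.7e-05, 7.9e-05 and 3.8e-07).

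As FPKM, the 6 members found in all tables summed to 366 ± 91.7 with zaxinone and 51.4 ± 6.903 in mock roots of d14 (SD, n = 4). The sums were 439 ± 82.04 with zaxinone and 95.9 ± 24.3 in mock roots of kai2, and 317 ± 71.6 and 93.3 ± 11.9 in zaxinone and mock roots of max2. Col-0 had 352 ± 14.9 with zaxinone and 64.98 ± 5.71 in mock roots. LTI30 made up 93.6%, 91.6%, 93.6% and 91.6% of the sum with zaxinone in d14, kai2, max2 and Col-0, against 97.2%, 96.8%, 97.3% and 96.8% in mock roots. The other 5 members together therefore had a larger share with zaxinone, although LTI30 stayed far above each of them.

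The 120 bases next to the LTI30 gene start are shown because they hold 3 DRE cores and no ABRE core. Capitals mark the DRE core CCGAC on either strand (GTCGG where it lies on the other strand). The stretch is chr3:18940523-18940642 of TAIR10.1, plus strand, from RefSeq.
LTI30: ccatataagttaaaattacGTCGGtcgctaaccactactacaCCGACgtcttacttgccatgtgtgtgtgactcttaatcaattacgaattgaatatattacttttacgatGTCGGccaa

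RAB18, whose name stands for responsive to ABA, is a dehydrin gene at bases 26518277 to 26519447 of chromosome 5. In kai2 it had 360.5, 85.6, 96.8 and 55.2 normalized counts with zaxinone, against 11.2, 2.19, 3.96 and 15.9 in mock roots. In Col-0 it had 113, 216, 159 and 201 with zaxinone, against 26.4, 3.98, 7.45 and 6.15 in mock roots. A lone library stood high in each of 2 groups, zaxinone replicate 1 of kai2 and mock replicate 1 of Col-0. RAB18 rose by 4.17 ± 0.71 in kai2 and by 3.92 ± 0.50 in Col-0 (edgeR, adjusted p = 0.00244 and 1.2e-04). The change was 3.25 in kai2 without that zaxinone library and 4.86 in Col-0 without that mock library. RAB18 overlaps its neighbour AT5G66410 in the annotation, and since the counting is not stated to use strand, their reads cannot be told apart.

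ERD10, a dehydrin gene named for its early response to dehydration, lies at bases 7087903 to 7089606 of chromosome 1. Its counts in d14 were 12238, 7436, 11278 and 9631 with zaxinone, against 3375, 3235, 3306 and 3840.4 in mock roots. The change was 1.56 ± 0.17 (edgeR, adjusted p = 3.5e-05). Scaled to the listed genes alone by DESeq2 size factors it was 0.54 and no longer passed (adjusted p = 0.0540, range over settings 2.3e-22 to 0.0540). No other table listed it. COR15A, which encodes a chloroplast protein that protects membranes in the cold and lies at bases 17710441 to 17712330 of chromosome 2, was not listed in any table.

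RD29A and RD29B are neighbours on chromosome 5, at bases 21240717 to 21243644 and 21237021 to 21239531. Their names stand for responsive to desiccation, and RefSeq calls them LTI78 and LTI65. They are textbook genes of the DRE and ABRE routes, and the windows before their gene starts are shown because these differ in the motifs. Each is the 300 bases before the annotated gene start (RefSeq, TAIR10.1), chr5:21240417-21240716 for RD29A and chr5:21236721-21237020 for RD29B, both on the plus strand. Capitals mark the DRE core CCGAC and the ABRE core ACGTG on either strand.
RD29A: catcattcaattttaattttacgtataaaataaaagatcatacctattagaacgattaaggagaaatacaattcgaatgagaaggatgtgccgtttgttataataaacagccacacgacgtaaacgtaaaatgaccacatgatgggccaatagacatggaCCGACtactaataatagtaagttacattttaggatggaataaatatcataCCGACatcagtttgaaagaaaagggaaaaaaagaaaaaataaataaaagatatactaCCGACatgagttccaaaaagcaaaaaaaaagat
RD29B: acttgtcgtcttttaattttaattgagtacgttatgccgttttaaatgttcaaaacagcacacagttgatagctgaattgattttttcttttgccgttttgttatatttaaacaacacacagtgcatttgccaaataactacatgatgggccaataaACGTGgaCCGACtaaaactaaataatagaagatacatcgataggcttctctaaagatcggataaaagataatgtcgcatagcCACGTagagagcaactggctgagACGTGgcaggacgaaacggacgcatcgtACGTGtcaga

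The RD29A window held 3 DRE cores, all on the gene's own strand, and no ABRE core, while the RD29B window held 4 ABRE cores and 1 DRE core. Bases after the annotated gene start were not searched, so this difference holds for the windows alone. In d14 RD29A had 3209, 1453, 3117 and 2936 normalized counts with zaxinone, against 141, 145, 161 and 204 in mock roots. In kai2 the zaxinone libraries had 4971, 2583, 3232 and 2217, against 461, 298, 259 and 388 in the mock libraries. RD29A counts in max2 were 1335, 2570.3, 1325 and 2004 with zaxinone and 314, 155, 243 and 435 in mock roots. Zaxinone replicate 2 of d14 lay well under the other 3 libraries of its group. In Col-0 RD29A had 3540.4, 4308, 3066 and 3309 with zaxinone, against 508, 271, 397 and 437 in mock roots. RD29A rose by 4.04 ± 0.26, 3.21 ± 0.28, 2.65 ± 0.32 and 3.14 ± 0.22 in d14, kai2, max2 and Col-0 (edgeR, adjusted p = 8.8e-07, 1.9e-05, 1.5e-04 and 7.7e-07).

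RD29B was expressed at a far lower level than RD29A. In d14 it had 201, 16.8, 109 and 79.9 normalized counts with zaxinone, against 3.22, 1.13, 4.53 and 7.24 in mock roots. The kai2 libraries had 473, 190.5, 160.0 and 134 with zaxinone, against 5.601, 7.65, 15.8 and 9.796 in mock roots. In max2 there were 56.7, 74.9, 77.8 and 101 with zaxinone, against 10.98, 22.9, 2.21 and 9.93 in mock roots. The highest d14 zaxinone library was 11.99 times the lowest, replicate 1 being the highest and replicate 2 the lowest. Col-0 had 42.3, 80.1, 47.8 and 23.3 with zaxinone, against 12.8, 7.96, 18.1 and 11.1 in mock roots. RD29B rose by 4.57 ± 0.71, 4.61 ± 0.50, 2.74 ± 0.46 and 1.95 ± 0.43 in d14, kai2, max2 and Col-0 (edgeR, adjusted p = 6.7e-04, 8.9e-05, 0.00200 and 0.0103). The mean folds on the normalized counts were 25.2 in d14, 24.6 in kai2, 6.74 in max2 and 3.88 in Col-0. As FPKM, RD29A averaged 16.05 ± 2.34 and RD29B 0.268 ± 0.130 in Col-0 zaxinone roots (SD, n = 4).

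LEA7 encodes a LEA protein, and the gene lies at bases 19619724 to 19621534 of chromosome 1. Mock roots held little of its RNA. In d14 it had 283, 49.2, 238 and 161 normalized counts with zaxinone, against 24.9, 11.3, 3.62 and 16.9 in mock roots. In kai2 it had 879, 299, 222 and 232 with zaxinone, against 10.3, 19.7, 6.93 and 3.67 in mock roots. Zaxinone replicate 1 of kai2 was far above the other 3, as for RAB18 and RD29B. The max2 libraries had 171, 170.1, 162 and 254 with zaxinone and 14.6, 15.3, 0 and 9.104 in mock roots. In Col-0 the counts were 291, 179.7, 345 and 299 with zaxinone and 14.6, 6.96, 13.8 and 11.1 in mock roots. LEA7 rose by 3.66 ± 0.58, 5.31 ± 0.60, 4.25 ± 0.52 and 4.57 ± 0.34 in d14, kai2, max2 and Col-0 (edgeR, adjusted p = 7.5e-04, 1.1e-04, 1.8e-04 and 1.3e-06), and by 4.61 in kai2 without zaxinone replicate 1. The gene AT1G52695 overlaps LEA7 in the annotation, and reads of this pair cannot be told apart without strand.

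LEA14, at bases 171525 to 172948 of chromosome 1, encodes an atypical and less hydrophilic LEA protein. Per length, its mock level was second only to that of LTI30 among the members listed in Col-0, at 35.7 ± 5.33 FPKM (SD, n = 4). In d14 it had 7809.6, 4247, 3905 and 3551 normalized counts with zaxinone, against 1711, 1807, 1519.8 and 1720.3 in mock roots. In Col-0 it had 9150.2, 7711, 8901 and 8389.8 with zaxinone, against 4625, 4299, 3945 and 3220.1 in mock roots. Replicate 1 stood apart among the d14 zaxinone libraries. LEA14 rose by 1.53 ± 0.23 in d14 and 1.09 ± 0.16 in Col-0 (edgeR, adjusted p = 5.2e-04 and 4.4e-04), the smallest change among the members in each of these tables. The d14 call was lost when libraries were scaled to the listed genes, by TMM (change 0.64) or DESeq2 size factors (0.48), with adjusted p-values over all settings of 1.0e-10 to 0.306.

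AT5G66780 encodes a LEA protein by the tables' own description and lies at bases 26663500 to 26664436 of chromosome 5. In Col-0 its change ranked 4th among the 937 genes listed as higher. In d14 it had 242, 65.99, 174 and 46.9 normalized counts with zaxinone, against 12.9, 3.39, 0 and 1.61 in mock roots. In kai2 it had 217, 119, 163 and 142 with zaxinone, against 18.7, 3.28, 4.95 and 15.9 in mock roots. In max2 the counts were 68.7, 209.7, 94.9 and 98.6 with zaxinone and 1.83, 5.45, 15.5 and 1.66 in mock roots. The zaxinone libraries of a group spread widely here, and d14 mock replicate 3 held none of this RNA. Col-0 roots had 373, 524, 780.0 and 835 with zaxinone, against 9.11, 4.97, 5.32 and 3.69 in mock roots. AT5G66780 rose by 4.81 ± 0.78, 3.88 ± 0.46, 4.32 ± 0.60 and 6.702 ± 0.39 in d14, kai2, max2 and Col-0 (edgeR, adjusted p = 9.2e-04, 1.7e-04, 4.5e-04 and 2.2e-07). The change was 6.296 in d14 without mock replicate 1 and 5.32 in max2 without mock replicate 3.

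AT3G17520, a LEA gene at bases 5999174 to 6000447 of chromosome 3, is given as raw counts because its mock libraries were at or near 0. In d14 it had 23, 10, 28 and 14 counts with zaxinone, against 0 in each of the 4 mock libraries. In Col-0 it had 58, 45, 109 and 65 counts with zaxinone, again against 0 in each mock library. It was thus at least 7.41-fold higher in d14 and at least 20.6-fold higher in Col-0, with the mock groups set to a floor of 3 counts per library. In kai2 it had 112, 40, 31 and 29 counts with zaxinone, against 0, 1, 0 and 1 in mock roots. In max2 it had 19, 8, 9 and 13 with zaxinone, against 2, 2, 0 and 3 in mock roots. The ratio of the summed counts was 93.8 in kai2 (95% exact interval 25.6 to 779.5) and 7.31 in max2 (3.29 to 19.1), where floors and intervals cover counting error only. The edgeR calls had adjusted p-values of 4.0e-04, 1.5e-04, 0.0149 and 2.5e-05 in d14, kai2, max2 and Col-0. In max2 the call was lost without zaxinone replicate 1 (adjusted p = 0.0542) and with both scalings to the listed genes, within a range of 9.2e-04 to 0.218.

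**Figure D2:**
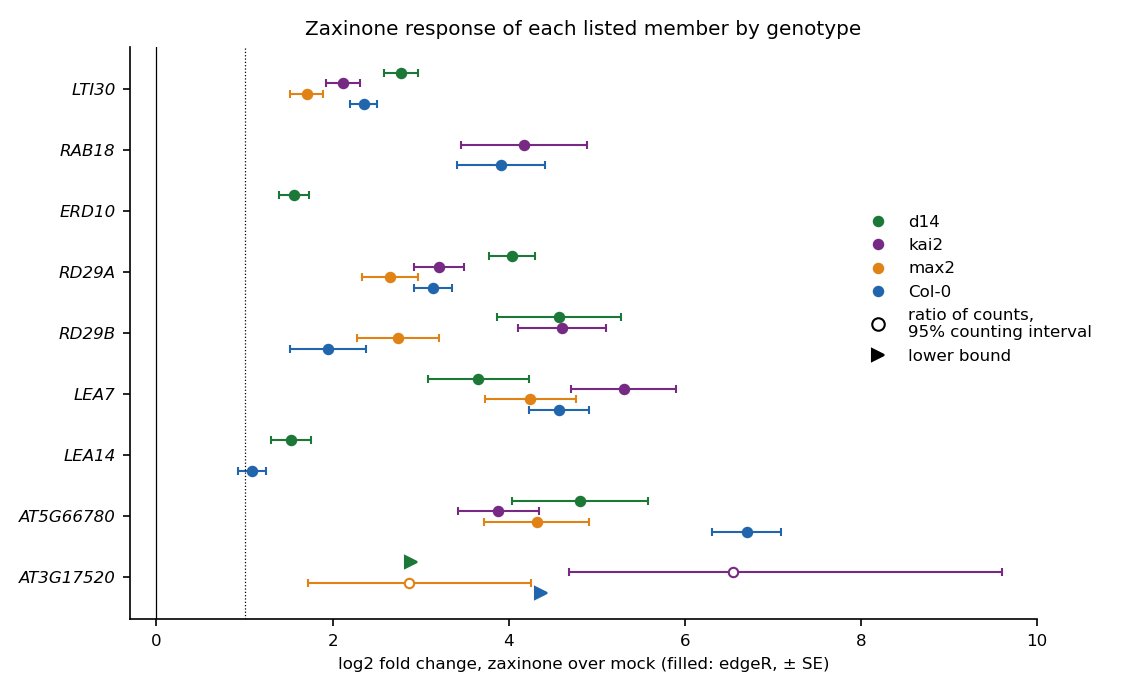
Log2 fold changes of zaxinone over mock for the 9 listed members (rows) in each genotype (colours), n = 4 libraries per group. Filled points are edgeR values with the SE derived from F. Open points are ratios of summed counts with a 95% counting interval, and triangles are lower bounds against mock groups at 0. Lines mark a change of 0 and of 1. Of the 4 genotypes, Col-0 has the highest point for AT5G66780 (6.702 ± 0.39) and the lowest for RD29B (1.95 ± 0.43).

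The promoters of AT5G66780 and AT3G17520 are shown because these genes had the largest listed changes of the members in Col-0 and their windows held both motif types. They are the 300 bases before the gene start (RefSeq, TAIR10.1), chr5:26663200-26663499 on the plus strand and chr3:6000448-6000747 on the minus strand. Capitals mark ABRE cores and DRE cores on either strand, and the letters CACGTG hold an ABRE core on each strand.
AT5G66780: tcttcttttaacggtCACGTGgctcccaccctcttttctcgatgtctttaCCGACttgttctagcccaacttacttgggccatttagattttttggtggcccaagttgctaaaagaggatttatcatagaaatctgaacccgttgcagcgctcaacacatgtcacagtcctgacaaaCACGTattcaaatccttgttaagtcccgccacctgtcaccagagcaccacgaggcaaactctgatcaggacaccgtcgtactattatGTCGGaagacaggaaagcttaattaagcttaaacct
AT3G17520: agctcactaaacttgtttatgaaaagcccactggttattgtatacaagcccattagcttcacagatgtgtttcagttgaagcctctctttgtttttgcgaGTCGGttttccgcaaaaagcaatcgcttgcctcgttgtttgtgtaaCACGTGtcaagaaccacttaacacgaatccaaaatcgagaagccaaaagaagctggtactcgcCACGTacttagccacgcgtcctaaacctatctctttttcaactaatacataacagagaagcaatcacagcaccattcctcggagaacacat

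Of the 10 members, 7 held an ABRE core (ACGTG) in the 300 bases before the gene start, each at least 2 matches, and 7 held a DRE core (CCGAC), 4 of them at least 2 matches. Among the 27443 windows of that length before protein-coding genes, 25.6% held an ABRE core and 9.94% held at least 2, while 13.9% held a DRE core and 1.84% at least 2. The longer forms ACGTGGC or ACGTGTC stood in 6 members and in 7.01% of all windows, and ACCGAC or GCCGAC in 7 members and in 8.24%. Both strands were searched, the longer forms contain the cores, and CACGTG counts on each strand. LTI30 and RD29A had 3 DRE cores each and no ABRE core. RAB18 and LEA14 had ABRE cores (3 and 2) and no DRE core, LEA7 had 5 ABRE cores and 1 DRE core, and COR15A had 2 of each. ERD10 held no match. A motif missing from any member says only that its letters are not in this window, as bases after the annotated gene start were not searched. Parts of the LTI30 and RAB18 windows lie within neighbouring genes. A match describes letters and not a bound site. As RD29A and RD29B are textbook genes of these routes, matches in them were likely from the start, and the shares are not a test.

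**Figure D3:**
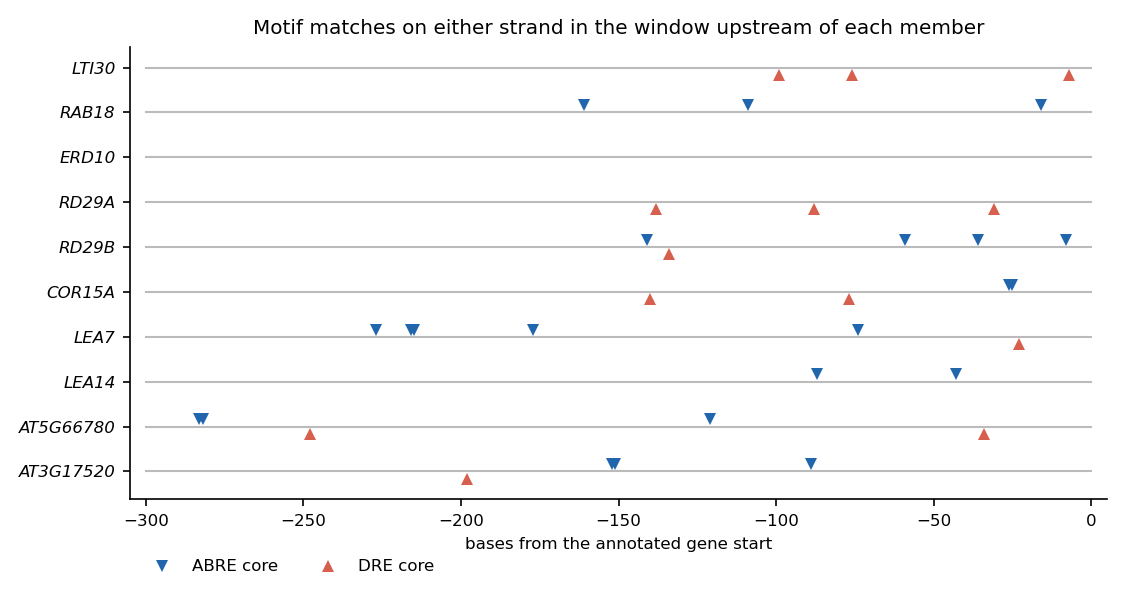
Position of each ABRE core (blue, above the line) and DRE core (red, below the line) within the 300 bases upstream of the 10 members (rows), on either strand, with the annotated gene start at 0. Within this window RD29A and LTI30 show DRE cores only, RAB18 and LEA14 ABRE cores only, and ERD10 none.

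Whether the zaxinone effect differed between each mutant and Col-0 was tested with an interaction term of genotype and treatment (edgeR). The test ran over the genes listed in both tables, so a response lost in the mutant or in Col-0 could not enter it. This filter leaned the test towards no difference. RAB18 in d14 and max2, LEA14 in kai2 and max2, and ERD10 and COR15A in every mutant were not tested. Every value in these comparisons uses the same 8 Col-0 libraries, so the mutants are not independent of each other. In d14, the mutant of the receptor the series is about, none of 7 members differed in effect (edgeR), against 7.91% of 1290 genes (6.98% with a larger and 0.93% with a smaller effect in d14). At an unadjusted p under 0.05 edgeR had 2 members (RD29B and RD29A) and 306 of the 1290 genes. DESeq2 called 1 member, and 137 genes with a larger and 22 with a smaller effect in d14, while limma-voom called 0 members, and 68 and 10 genes. The d14 effect minus the Col-0 effect was 2.63 ± 0.87 for RD29B (edgeR, adjusted p = 0.0641) and 0.90 ± 0.33 for RD29A (edgeR, adjusted p = 0.0906) on the log2 scale. Both passed without d14 zaxinone replicate 2, the low library, with values of 2.98 ± 0.69 for RD29B and 1.104 ± 0.27 for RD29A (edgeR, adjusted p = 0.0155 and 0.0197, within ranges of 0.0155 to 0.229 and 0.0197 to 0.195). The same difference was 0.42 ± 0.23 for LTI30, -0.91 ± 0.69 for LEA7, 0.44 ± 0.28 for LEA14 and -1.88 ± 0.97 for AT5G66780, and AT3G17520, counted among the 7, gave no usable estimate because its mock counts were 0 in both genotypes. With TMM over the listed genes, 47 genes had a larger and 29 a smaller effect in d14, against 90 and 12 with the authors' factors.

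In kai2 none of 7 members differed in effect from Col-0 (edgeR), against 0% of 1138 genes tested. At an unadjusted p under 0.05 edgeR had 2 members and 98 of all genes, DESeq2 called 2 members, and 12 genes with a larger and 6 with a smaller effect in kai2, and limma-voom called 0 members and 2 of all genes. The kai2 effect minus the Col-0 effect was -2.81 ± 0.62 for AT5G66780 (edgeR, adjusted p = 0.0666) and 2.66 ± 0.67 for RD29B (edgeR, adjusted p = 0.107). AT5G66780 passed without Col-0 zaxinone replicate 1 or 2 or kai2 mock replicate 2 (edgeR, adjusted p = 0.0375, 0.0420 and 0.0260, within a range of 0.00192 to 0.191), and RD29B passed without Col-0 zaxinone replicate 2 (adjusted p = 0.0420, within a range of 0.0128 to 0.249). The difference was -0.24 ± 0.23 for LTI30 and 0.07 ± 0.35 for RD29A.

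In max2 AT3G17520 alone of 6 members differed in effect from Col-0 (edgeR, adjusted p = 0.0137, range over settings 0.00174 to 0.0571), against 2.57% of 1049 genes (1.72% with a larger and 0.858% with a smaller effect in max2). Its rise was smaller in max2, where mock libraries had 0 to 3 counts, than in Col-0, where they had 0, so the size of the difference is set by counts at or under the floor and is not given. The difference no longer passed without max2 mock replicate 4 (adjusted p = 0.0571). AT5G66780 had a log2 difference of -2.37 ± 0.78 (edgeR, adjusted p = 0.125), LTI30 of -0.64 ± 0.22 (adjusted p = 0.162) and RD29B of 0.80 ± 0.66 (adjusted p = 0.694). AT5G66780 passed without max2 zaxinone replicate 2 (edgeR, adjusted p = 0.0416, within a range of 0.0188 to 0.500). At an unadjusted p under 0.05 edgeR had 3 members and 156 of the 1049 genes. DESeq2 called 2 members, and 30 genes with a larger and 20 with a smaller effect in max2, while limma-voom called 1 member, and 8 and 6 genes.

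Mock roots of the mutants were then set beside Col-0 mock roots, scaled by library totals, to ask whether members differed without zaxinone. In d14 2 of 7 members differed, both lower, against 21.2% of 1290 genes (10.5% higher and 10.7% lower). LEA14 had 21.4, 22.7, 18.8 and 21.5 FPKM in d14 mock roots and 41.2, 38.1, 34.9 and 28.7 in Col-0 mock roots, a difference of -0.76 ± 0.20 on the log2 scale (edgeR, adjusted p = 0.0113). RD29A had 0.890, 0.919, 1.01 and 1.29 FPKM in d14 mock roots and 2.29, 1.21, 1.78 and 1.97 in Col-0 mock roots, a difference of -0.82 ± 0.24 (edgeR, adjusted p = 0.0197). The groups did not overlap for LEA14, while for RD29A d14 mock replicate 4 lay above Col-0 mock replicate 2. The RD29A call was lost without Col-0 mock replicate 1 or 4 and without d14 mock replicate 1 or 2 (adjusted p from 0.0502 to 0.0663 in these, 0.00714 to 0.0663 over all settings).

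In kai2 1 of 7 members differed in mock roots, against 12.6% of 1138 genes (9.93% higher and 2.64% lower). LTI30 had 127, 78.03, 75.2 and 91.5 FPKM in kai2 mock roots and 62.2, 57.1, 61.9 and 70.2 in Col-0 mock roots, a difference of 0.56 ± 0.16 (edgeR, adjusted p = 0.0297). In max2 2 of 6 differed, against 28.8% of 1049 genes (19.1% higher and 9.72% lower). LTI30 had 91.9, 81.1, 107 and 82.9 FPKM in max2 mock roots, above all 4 Col-0 libraries, a difference of 0.53 ± 0.16 (edgeR, adjusted p = 0.0171). The other was AT3G17520, at counts of 2, 2, 0 and 3 in max2 and 0 in every Col-0 mock library (edgeR, adjusted p = 0.0159), where no fold is given because both groups are at or under the floor. That call was lost with limma on log2(FPKM + 0.1) (adjusted p = 0.318) and with the 8 mock libraries alone (edgeR, adjusted p = 0.0612), within a range of 0.00962 to 0.318. With TMM over the listed genes, which moved the median of all genes by -0.17 in kai2 and -0.25 in max2, the LTI30 differences were 0.38 ± 0.14 and 0.28 ± 0.14 and did not pass. That scaling gave 63 genes higher and 57 lower in kai2, against 113 and 30 by library totals, and 91 higher and 171 lower in max2, against 200 and 102. The kai2 call on LTI30 also depended on single libraries and was lost without Col-0 mock replicate 1, 2 or 3 and without kai2 mock replicate 1 or 4, and the max2 call was lost without max2 mock replicate 3. AT5G66780 had a mock difference of 1.49 ± 0.52 in kai2 (edgeR, adjusted p = 0.0701), which passed without kai2 mock replicate 2 or 3 (adjusted p range 0.0213 to 0.273).

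The levels reached with zaxinone were compared in the same way, a comparison chosen after seeing the data. In d14 3 of 7 members differed from Col-0, against 32% of 1290 genes (24.7% higher and 7.36% lower). In kai2 3 of 7 differed, against 19.6% of 1138 genes (16% higher and 3.6% lower), and in max2 3 of 6, against 39.9% of 1049 genes (27.6% higher and 12.4% lower). RD29B and AT5G66780 were among the 3 in each mutant, RD29B higher and AT5G66780 lower than in Col-0, and the same 4 Col-0 libraries stand behind all of these values. TMM over the listed genes gave 185 genes higher and 195 lower in d14, against 318 and 95 by library totals, 110 and 74 in kai2, against 182 and 41, and 205 and 191 in max2, against 289 and 130.

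RD29B had 1.54, 0.130, 0.847 and 0.619 FPKM in d14 zaxinone roots, 4.09, 1.65, 1.39 and 1.17 in kai2 and 0.493, 0.651, 0.678 and 0.874 in max2, against 0.233, 0.441, 0.267 and 0.129 in Col-0. All kai2 and max2 zaxinone libraries lay above all Col-0 libraries, and d14 replicate 2 lay at the level of the lowest Col-0 library. The difference from Col-0 was 1.55 ± 0.52 in d14, 2.95 ± 0.43 in kai2 and 1.33 ± 0.42 in max2 (edgeR, adjusted p = 0.0284, 2.3e-04 and 0.0169). The d14 call was lost in 8 of 15 other settings (edgeR and alternatives, adjusted p 0.00338 to 0.150). Among these were TMM over the listed genes, the fit without d14 zaxinone replicate 1 (0.98 ± 0.50) and those without Col-0 zaxinone replicate 1, 3 or 4. The max2 call was lost without Col-0 zaxinone replicate 4 or max2 zaxinone replicate 4.

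AT5G66780 had 4.795, 1.32, 3.501 and 0.939 FPKM in d14 zaxinone roots, 4.84, 2.65, 3.64 and 3.19 in kai2 and 1.54, 4.71, 2.14 and 2.21 in max2, against 5.31, 7.46, 11.3 and 11.99 in Col-0. Every mutant zaxinone library lay below every Col-0 zaxinone library. The difference was -1.76 ± 0.49 in d14, -1.33 ± 0.34 in kai2 and -1.76 ± 0.41 in max2 (edgeR, adjusted p = 0.0111, 0.0105 and 0.00213), and the adjusted p passed in each of 15 other settings in every mutant.

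AT3G17520 had 0.283, 0.148, 0.404 and 0.234 FPKM in d14 zaxinone roots and 0.280, 0.127, 0.127 and 0.202 in max2, against 0.489, 0.413, 0.840 and 0.716 in Col-0. All of these mutant libraries lay below the Col-0 libraries. The difference was -1.19 ± 0.40 in d14 and -1.73 ± 0.41 in max2 (edgeR, adjusted p = 0.0353 and 0.00345), the d14 call being lost without Col-0 zaxinone replicate 3 or 4 and without d14 zaxinone replicate 1, 2 or 4. In kai2 the gene had 1.28, 0.543, 0.568 and 0.384 FPKM, a difference of 0.18 ± 0.41 that did not pass. LEA7 was the third gene in kai2, with 18.3, 6.21, 4.62 and 4.87 FPKM against 3.84, 2.38, 4.63 and 3.99 in Col-0 zaxinone roots, a difference of 1.198 ± 0.40 (edgeR, adjusted p = 0.0408). Without kai2 zaxinone replicate 1 the LEA7 difference was 0.50 ± 0.32 (edgeR, adjusted p = 0.302). The LEA7 call was also lost without any 1 of the Col-0 zaxinone libraries and with TMM over the listed genes.

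For LTI30 and RD29A the zaxinone levels did not pass in any mutant. LTI30 averaged 342 ± 83.4, 401 ± 66.5 and 297 ± 66.3 FPKM in d14, kai2 and max2 zaxinone roots, against 322 ± 15.98 in Col-0 (SD, n = 4). RD29A averaged 16.9 ± 5.19, 22.97 ± 8.58 and 12.8 ± 4.23, against 16.05 ± 2.34 in Col-0 (SD, n = 4). In the order of these means, kai2, d14, Col-0 and max2 for both genes, all neighbouring genotypes overlapped. LEA14, measured in d14 and Col-0 alone, had a zaxinone difference of -0.33 ± 0.20 in d14 (edgeR, adjusted p = 0.206). Without d14 zaxinone replicate 1 it was -0.64 ± 0.14 (edgeR, adjusted p = 0.00342, range over settings 0.00342 to 0.462). With TMM over the listed genes LEA14 also passed as lower in d14.

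**Figure D4:**
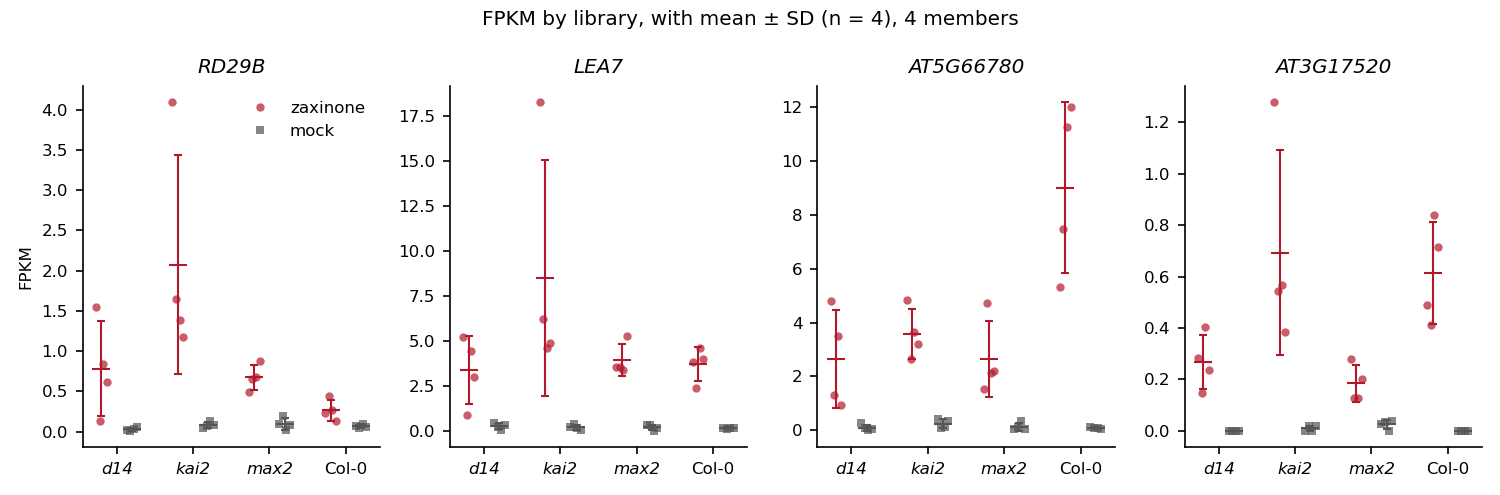
FPKM of RD29B, LEA7, AT5G66780 and AT3G17520 in each library (circles, zaxinone; squares, mock) with mean ± SD, n = 4 libraries per group. With zaxinone the mean of RD29B is lowest and that of AT5G66780 highest in Col-0, while zaxinone replicate 1 of kai2 is the high point for RD29B, LEA7 and AT3G17520.

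Within the d14 and kai2 groups, the zaxinone libraries that were high for a given member tended to be high for others. Each library was described by its deviation from its group mean on the log2(normalized count + 1) scale, averaged over the 6 members in all tables. Zaxinone replicate 1 of kai2 stood 0.83 above its group mean and was the highest library for 6 of 6 members. In d14 zaxinone replicate 1 stood 0.74 above and replicate 2 stood -1.06 from the group mean, the lowest for 5 of the 6. The Col-0 zaxinone libraries deviated by only -0.14 to 0.17, each with 3 or 4 of the 6 members above the group mean. Those of max2 deviated by -0.22 to 0.23. Among the 16 zaxinone libraries the median correlation between pairs of members was 0.63 over 15 pairs, while among the 16 mock libraries it was -0.07. The value of 0.63 pools the 4 genotypes and was not measured without the far libraries of d14 and kai2. Over all 32 libraries the pairs ranged from -0.10 to 0.71, the highest being LTI30 with RD29A (r = 0.71, rho = 0.77). These correlations describe libraries that share their depth and handling, and mock counts of the rarer members were low. Pairs of other listed genes were not measured among the zaxinone libraries, so the value of 0.63 is not shown to be particular to the members. Zaxinone replicate 1 of kai2 was also the deepest of its group, with 68.8 M fragments against 42.8 to 59.3 M in the other 3, and its part in the result was not tested.

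**Figure D5:**
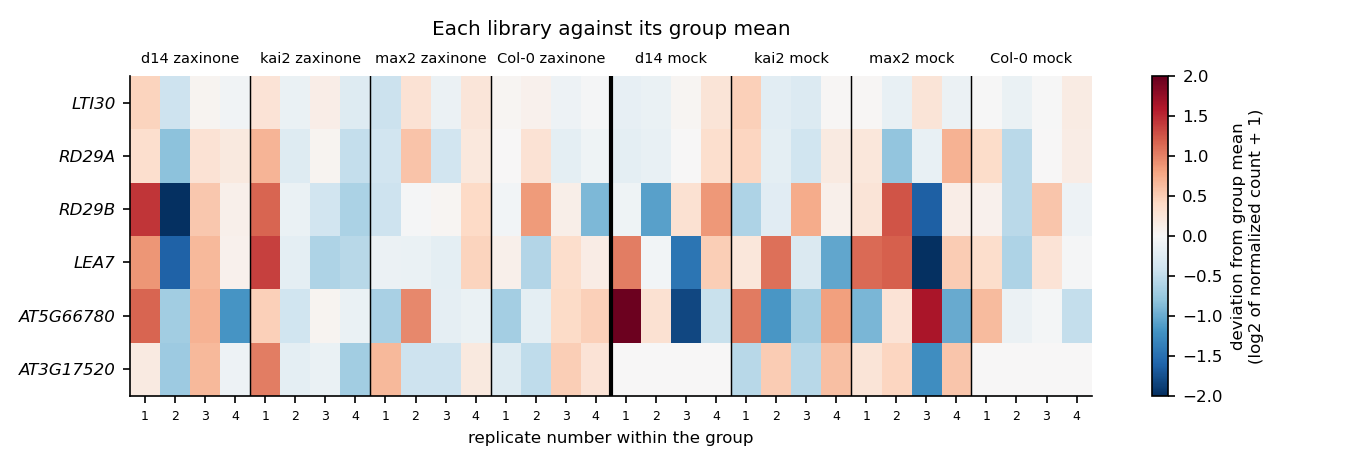
Deviation of each library (columns, replicate numbers within the group) from its group mean for the 6 members (rows), in log2 of normalized count plus 1, with colours ending at -2 and 2. Zaxinone replicate 1 of kai2 is above its group mean for every member, and zaxinone replicate 2 of d14 is below it for every member.

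Of 821 other genes listed in all 4 tables, those whose deviations followed the members' mean deviation most closely over the 32 libraries were HB21 (r = 0.73), a homeobox gene, HAI3 (0.72), a clade A protein phosphatase 2C gene highly induced by ABA, AFP1 (0.70), which encodes a protein that binds the bZIP factor ABI5, AT4G35690 (0.68), of no stated function, and the MYB gene MYB305 (0.67). The median over the 821 genes was 0.04. Without the farthest libraries, d14 zaxinone replicate 2 and kai2 zaxinone replicate 1, the values were 0.61, 0.56, 0.50, 0.66 and 0.47. The 5 genes rose with zaxinone in every genotype by the authors' deposited tables, HB21 by 3.33, 1.89, 2.02 and 2.94 in d14, kai2, max2 and Col-0.

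Some other LEA genes were listed too, most of them as higher. Of 44 further LEA genes, the authors' deposited tables listed 10 as higher and 2 as lower in d14, 6 and 2 in kai2, 9 and 2 in max2, and 10 and 2 in Col-0. Over all genes tested 3.51%, 3.28%, 2.6% and 3.59% were listed as lower in d14, kai2, max2 and Col-0. LEA18, a LEA gene of group 1, had 55.1 ± 39.3 normalized counts with zaxinone and 2.73 ± 0.459 in mock roots of d14, and 35.9 ± 11.7 and 1.202 ± 1.47 in zaxinone and mock roots of Col-0 (SD, n = 4). LEA4-5 changed by 4.23, 3.08, 2.46 and 2.77 in d14, kai2, max2 and Col-0 on the log2 scale of the authors' deposited tables, and EM6, best known from seeds, by 2.97, 2.14, 1.35 and 1.62. AT2G23110, of LEA group 6, changed by 4.78, 2.24, 4.87 and 3.49 in these tables. The LEA3 family gene AT3G53770 went the other way, at 86.9 ± 22.7 with zaxinone and 366 ± 67.7 in mock roots of d14, and 41.6 ± 15.4 and 260.0 ± 41.7 in zaxinone and mock roots of Col-0.

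Genes of ABA synthesis and ABA breakdown that were listed were all higher with zaxinone. Of 13 such genes 4 were listed in d14, 4 in kai2, 5 in max2 and 4 in Col-0, all as higher. NCED3, whose enzyme makes the step that limits stress-induced ABA synthesis, changed by 3.802, 4.42, 2.02 and 3.92 in d14, kai2, max2 and Col-0 by the authors' deposited tables. CYP707A2, whose product breaks ABA down, changed by 2.97, 1.78, 3.15 and 2.81 in the same tables. NCED2 was listed as higher in all 4 tables, CYP707A1 in those of kai2, max2 and Col-0, and ABA1 in those of d14 and max2.

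The listed ABA receptor genes were lower. Of 9 receptor genes 3 were listed in d14, 3 in kai2, 3 in max2 and 4 in Col-0, all as lower. PYL6 had 519 ± 243 normalized counts with zaxinone and 6046 ± 721 in mock roots of d14, and 456 ± 156 and 6997 ± 489 in zaxinone and mock roots of Col-0 (SD, n = 4). PYL5 and PYL4 were lower in all 4 tables, with changes of -2.59 and -2.04 in Col-0, and PYR1 in that of Col-0 alone, with a change of -1.096 (authors' deposited tables, log2 scale).

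The listed phosphatase genes, whose products act after the receptors, were higher in every case. The only SnRK2 kinase gene listed was in the max2 table alone, also as higher. Of 12 clade A phosphatase 2C and SnRK2 genes 6 were listed in d14, 8 in kai2, 7 in max2 and 6 in Col-0. HAI1, a phosphatase gene strongly induced by ABA, had 1848 ± 1114 normalized counts with zaxinone and 52.7 ± 23.6 in mock roots of d14, and 1909 ± 445 and 83.8 ± 22.3 in zaxinone and mock roots of Col-0 (SD, n = 4). HAI3 changed by 2.85, 4.45, 1.27 and 5.103 in d14, kai2, max2 and Col-0, and HAI2 by 4.08, 2.77, 2.602 and 2.99 (authors' deposited tables). ABI2 and PP2CA, phosphatase genes of the same clade, were also listed as higher in all 4 tables.

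Among the factors that read the promoter elements, ABF3, an ABRE-binding factor gene, was listed as higher in every table and ABF2 in that of kai2 alone, out of 8 genes. ABF3 had 7579.8 ± 1601 normalized counts with zaxinone and 1222 ± 75.1 in mock roots of d14, and 12469.6 ± 2635 and 3088 ± 417 in zaxinone and mock roots of Col-0 (SD, n = 4). Of 9 DREB, CBF and related genes 6 were listed in d14, 4 in kai2, 5 in max2 and 6 in Col-0, all as higher. DREB2A, a drought-responsive factor gene, changed by 2.84, 2.48, 2.12 and 2.42 in d14, kai2, max2 and Col-0, and CBF3, a cold-responsive factor gene, by 5.27, 2.37, 1.62 and 3.32 (authors' deposited tables). CBF3 counts were low, at 25.98 ± 7.08 with zaxinone and 0.710 ± 0.492 in mock roots of d14. ICE1 was listed in all 4 tables, and CBF4 and CBF2 in 3 each.

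Of 28 other genes of dehydration and cold, 18 were listed in d14, 13 in kai2, 13 in max2 and 15 in Col-0, all as higher. The median authors' log2 fold change of the listed ones was 2.205, 1.86, 1.53 and 1.76 in d14, kai2, max2 and Col-0, beside 1.68, 1.54, 1.601 and 1.601 over all genes listed as higher, and 3.86, 4.18, 2.82 and 3.54 for the listed members. The members and lists were chosen with earlier results of these data known, so these medians describe the choice and do not test it. TSPO, which encodes a membrane protein induced by ABA, changed by 5.59, 5.17, 4.63 and 5.02 in the authors' deposited tables. The abundant membrane protein gene RCI2A had 81466 ± 19655 normalized counts with zaxinone and 13005 ± 1410.2 in mock roots of d14, and 69750.4 ± 10184 and 20567 ± 2208 in zaxinone and mock roots of Col-0 (SD, n = 4). COR413-PM1, a cold-regulated membrane protein gene, and the NAC factor genes NAC019 and RD26 were higher in all 4 tables.

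Markers of other tissues could be read only where listed. Of 10 shoot markers RBCS2B was listed in d14 and RBCS2B and LHCB1.2 in kai2, as lower. Their summed normalized counts were 0 to 1.09 in zaxinone and 2.41 to 19.0 in mock libraries of d14, and 0.774 to 11.2 in zaxinone and 3.67 to 118 in mock libraries of kai2 (the highest being mock replicate 1), where RBCS2B was at 0 in every zaxinone library. None of 5 seed storage markers was listed in any table. Of 7 root markers NRT2.1 was listed in d14 and max2, as lower, with 331 to 520.1 normalized counts in zaxinone and 610.4 to 1732 in mock libraries of d14. Their part in the members' values was not tested.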

How the data were processed

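Poly(A) RNA from 32 root libraries was read as paired ends, according to the labels' protocols. The submitters' processing notes name HISAT2 and StringTie; the sources used here do not give versions, the counting tool, its use of strand or the model behind the p-values. The columns deposited by the authors hold, per the file headers, raw counts, normalized counts (a signal, the count over 1 factor per library), FPKM values, log2 fold changes, and raw and adjusted p-values. The factor of Col-0 zaxinone replicate 2, whose deposited normalized column was constant, was recovered from the authors' group mean. Exon lengths of TAIR10.1 (RefSeq) gave the deposited FPKM to within 0.1% for 49720 of 49720 values at counts of 20 or more, so coordinates and sequences use that build. Library totals were recovered from counts and FPKM.

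The tables list only genes with an adjusted p-value under 0.05 and a log2 change of at least 1 either way (2336 in d14, 1833 in kai2, 1514 in max2 and 1835 in Col-0). From p-value ranks, the authors had tested 24718, 24625, 24534 and 25041 genes in d14, kai2, max2 and Col-0. The authors' deposited calls therefore stand for each zaxinone comparison. Sizes and spreads came from edgeR 4.0.16 (quasi-likelihood test on deposited counts, the authors' factors as scale, R 4.3.3), with Benjamini-Hochberg adjustment over the implied tests and unlisted genes entered as unchanged, which tends to make adjusted p-values too high. Comparisons between genotypes ran over genes listed in both tables (1290, 1138 and 1049 for d14, kai2 and max2), with library totals as scale for levels. In all of these fits the spread was estimated from listed genes alone, which had been selected with the same libraries. This can make SEs and p-values too low, by an amount that was not measured. The fits were tried on simulated counts with the same fixed spread for all genes. The simulation left out genes of few counts and did not select genes by their result, so it does not cover the low-count members or the listing. Alternatives used DESeq2 1.42.0, limma 3.58.1 (voom, and log2(FPKM + 0.1)), other scalings, a filter on low counts, stricter thresholds, a replicate block and left-out libraries. With 4 libraries against 4, an exact two-sided test cannot go below p = 0.0286. Replicates differed by far more than sampling noise (chi-square per degree of freedom 16.8 to 287).

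The members, gene lists and comparisons were chosen with earlier results of these data known. All 10 members were named; of each other list at most 5 genes were named, those listed in most tables and then with the largest mean absolute change.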

Additional observations from a re-analysis of the deposited data

Results flagged for a closer look

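Among 56 groups of 4 libraries with any spread, 7 had a library far from the other 3. A rate of about 1 in 20 groups by chance holds only for independent and normally distributed values. The members share their libraries and counts are skewed, so the 7 flags cannot be set against that rate. In kai2 zaxinone replicate 1 RAB18 stood at 360.5 normalized counts against 55.2 to 96.8 in the other 3, RD29B at 473 against 134 to 190.5, and LEA7 at 879 against 222 to 299. In d14 zaxinone replicate 2 RD29A stood at 1453 against 2936 to 3209, and in d14 zaxinone replicate 1 LEA14 stood at 7809.5 against 3551 to 4247. LEA7 in max2 zaxinone replicate 4 was 254 against 162 to 171, and RAB18 in Col-0 mock replicate 1 was 26.4 against 3.98 to 7.45.

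The zaxinone effect on AT3G17520 differed between max2 and Col-0 by the test of the difference itself (edgeR, adjusted p = 0.0137), with mock counts of 2, 2, 0 and 3 in max2 and 0 in every Col-0 library. Without max2 mock replicate 4 it no longer passed (adjusted p = 0.0571), and the range over settings was 0.00174 to 0.0571.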

How the results depend on the processing

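The counts of members that rose with zaxinone were 8 in d14, 7 in kai2, 6 in max2 and 8 in Col-0, and with 1 library left out 8, 7, 5 to 6 and 8. A required change of at least 2 gave 6, 7, 5 and 6, TMM over the listed genes 7, 7, 5 and 8, and DESeq2 size factors 6, 7, 5 and 8. The fit of all 32 libraries covered 6 members and filterByExpr kept 5 in max2, and every member so fitted was called. The other settings called every listed member. TMM over the listed genes shifted the median change by -0.87 in d14, -0.61 in kai2, -0.64 in max2 and 0.01 in Col-0, and DESeq2 size factors by -1.02, -0.76, -0.83 and -0.17. Every listed member stayed above 0 under both. TMM over the genes listed in both tables shifted the median by -0.21 for the d14 difference in effect, and by -0.25, -0.17 and -0.20 for zaxinone levels in d14, kai2 and max2. Members that differed in effect from Col-0 numbered 0 in d14, 0 in kai2 and 1 in max2. In d14 the number was 1 with DESeq2, 1 with a replicate block and 1 with all 32 libraries in 1 fit of 6 members, and 0 to 2 with 1 library left out. In kai2 it was 2 with DESeq2 and 0 to 2 with 1 left out. In max2 it was 2 with DESeq2, 0 with a replicate block and 0 to 2 with 1 left out. Members that differed in mock roots numbered 2, 1 and 2 in d14, kai2 and max2. With a difference of at least 1 required the numbers were 0, 0 and 1. In kai2 the number was 2 with DESeq2, 0 with TMM and 0 with the 8 mock libraries alone. In max2 it was 1 with limma on FPKM, 1 with TMM and 1 with the 8 mock libraries alone. With 1 library left out the mock numbers were 1 to 2, 0 to 2 and 1 to 2. The zaxinone levels, 3 members in each mutant, gave 1 to 3, 2 to 3 and 2 to 3 with 1 library left out. With TMM over the genes listed in both tables they gave 3, 2 and 3, of which 0, 1 and 1 were higher than in Col-0. Apart from fewer members fitted and stricter thresholds, the cause of these changes was not tested. No called member reversed its direction in any setting run.

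Replicate numbers did not pair the libraries: correlations of same-numbered deviations ran from -0.15 to 0.16. With a replicate block the zaxinone counts were 8, 7, 6 and 8 in d14, kai2, max2 and Col-0. AT3G17520 in max2 against Col-0 had an adjusted p of 0.0545 and RD29B in d14 against Col-0 one of 0.0379 (edgeR with a block; ranges over settings 0.00174 to 0.0571 and 0.0155 to 0.229). For zaxinone levels RD29B in d14 (adjusted p = 0.0805) and LEA7 in kai2 (0.0741) did not pass with the block in edgeR, within ranges of 0.00338 to 0.150 and 0.0231 to 0.302.

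Depth limits AT3G17520, AT5G66780, RD29B, LEA7 and RAB18, whose mock libraries held few counts. Genes that the tables do not list could not be measured, so an unlisted member is not shown to be unchanged.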
